A study of Mus musculus with 8 samples.

Results

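In liver RNA, 10 genes were followed, 6 of them known mainly from fat tissue (Fabp4, Adipoq, Retn, Plin1, Lipe and Lep). The other 4 were grouped as steatosis genes that hepatocytes express (Pparg, Cd36, Car3 and Mogat1). They were chosen by symbol, matched to 10 of the 56884 genes counted, and compared between obese mice with and without docosahexaenoic acid (DHA) in the diet. The liver libraries came from female C57BL/6J mice of 18 months, 1 library per mouse. All mice had been made obese from the age of 2 months by 4 months on a high fat diet in which lipids gave 45% of the energy (diet-induced obesity, DIO). The 3 DIO mice then stayed on that diet with a tocopherol mix added, and the 5 DIO + DHA mice ate it with 15% by weight of its lipids replaced by a fish oil concentrate holding 683.4 mg DHA per g and the same tocopherols. Livers of both groups were taken at 18 months after an overnight fast, and no lean group was part of the comparison.

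PPARγ, the protein of Pparg, is a nuclear receptor that binds fatty acids and pairs with a retinoid X receptor on DNA. It is the main switch of fat cell formation, and in a fatty liver its level in hepatocytes rises and it turns on genes for taking up, esterifying and storing fatty acids, Cd36, Mogat1 and the Cidec and Cidea droplet genes among them. Adiponectin, resistin, leptin and perilipin 1, in contrast, are products of the fat cell that healthy hepatocytes hardly make, so the genes of both groups can show apart from each other in one tissue.

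Library totals ran from 1723800 counts in DIO replicate 1, the shallowest, to 5690347 in DIO replicate 5. Levels are given as CPM, the counts scaled to a common library size, in the order DIO replicates 1, 4 and 5 and then DIO + DHA replicates 1, 2, 4, 5 and 6. The hepatocyte marker list summed to between 122246 and 127802 CPM in DIO and between 130871 and 142679 CPM in DIO + DHA. Of its 12 genes 4 were higher and 3 lower in DIO + DHA. The libraries were enriched for the 3′ ends of transcripts, so levels were compared between mice and not between genes. In liver pieces sequenced as a whole, fewer cells of a type and less RNA per cell cannot be told apart.

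Of the 10 genes, 8 reached the count minimum for testing and Plin1 and Lep did not. With edgeR's quasi-likelihood test and Benjamini-Hochberg adjustment over 12412 genes, 3 of the 8 were higher in DIO + DHA livers (Fabp4, Retn and Adipoq), where 7.89% of all tested genes were higher. None of the 8 was lower, at an adjusted or an unadjusted p under 0.05, and DESeq2 and limma-voom also called none lower; 7.28% of all tested genes were lower. Retn and Adipoq reached the minimum only through the DIO + DHA group, so the count of 3 is a description of these genes. In 2 of the 8, Fabp4 and Retn, the lowest DIO + DHA value exceeded the highest DIO value, a separation that 9.54% of all tested genes showed, and the untested Plin1 was separated in the same way. The steatosis genes Pparg, Cd36, Car3 and Mogat1 did not pass the test.

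**Figure D1:**
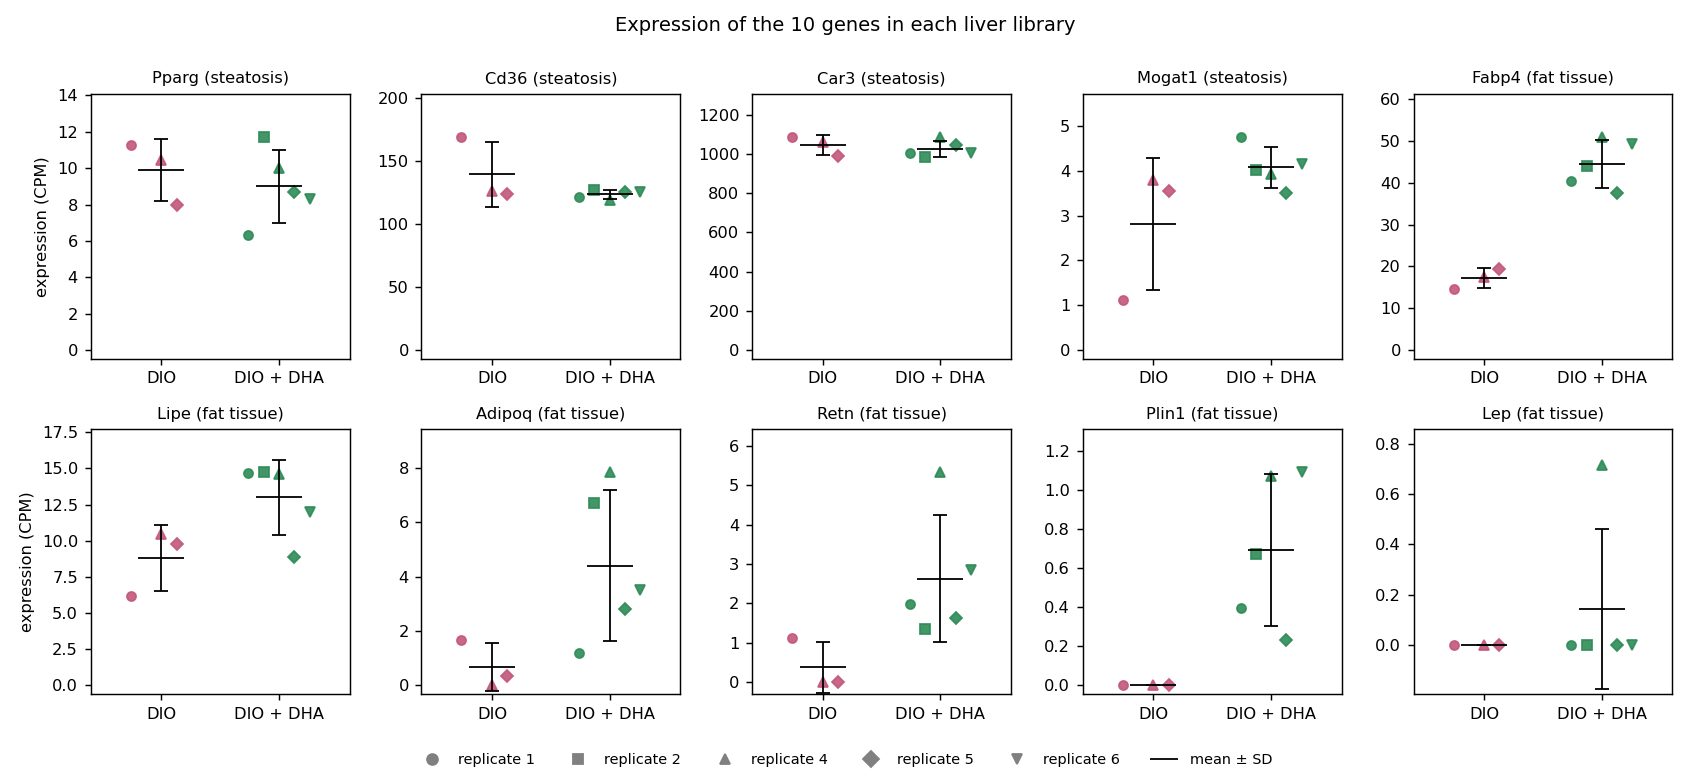
Level of each of the 10 genes in each library, in CPM, for the DIO group (3 mice) and the DIO + DHA group (5 mice). Points are libraries, with the symbol giving the replicate number, and bars are the mean ± SD. Fabp4 lies between 14.6 and 19.3 CPM in DIO and between 37.5 and 51.0 CPM in DIO + DHA, whereas the points of Pparg and Car3 overlap between the groups.

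Pparg, the receptor itself, stands on chromosome 6 (GRCm39, chr6:115337912-115467360, plus strand). It was at 11.3, 10.5 and 7.99 CPM in the DIO livers and at 6.35, 11.7, 9.99, 8.67 and 8.30 CPM in the DIO + DHA livers. The lowest and the highest of the 8 values both belonged to the DIO + DHA group, and the groups overlapped over most of their range. The log2 fold change was -0.13 ± 0.21 (SE) with an adjusted p of 0.768. The 95% interval of the fold ran from 0.685 to 1.22, so folds in that range remain possible. It rested on 20 to 58 Pparg counts per library, and the smallest fold that could be detected was not estimated.

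Cd36, a surface receptor that carries long-chain fatty acids into cells (chr5:17986688-18093799, minus strand), was measured far more deeply. Its levels were 169, 126 and 124 CPM in DIO and 121, 127, 119, 126 and 125 CPM in DIO + DHA. DIO replicate 1 alone stood above the others, and the remaining 7 livers lay within a few CPM of each other. The difference on the log2 scale was -0.14 ± 0.08 (SE), adjusted p = 0.305, with a fold between 0.806 and 1.02 (95% interval). Without DIO replicate 1 the value was -0.01, adjusted p = 0.978.

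Car3, carbonic anhydrase 3, an abundant enzyme of fat cells, slow muscle and liver (chr3:14928572-14937583, plus strand), was at 1086, 1059 and 990 CPM in DIO. In DIO + DHA it was at 1003, 984, 1087, 1043 and 1004 CPM. The groups covered the same range. At a log2 fold change of -0.03 ± 0.06 (SE), adjusted p = 0.846, the 95% interval of the fold was 0.899 to 1.07, the narrowest of the genes followed here. Skeletal muscle markers, summed, were at 40.8 to 46.1 CPM in DIO and 1503 to 1632 CPM in DIO + DHA. The part of muscle in the level of Car3 was not tested.

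Mogat1, which joins a fatty acid to monoacylglycerol on the way to triglyceride (chr1:78487628-78514810, plus strand), was at 1.13, 3.79 and 3.55 CPM in DIO and at 4.76, 4.02, 3.92, 3.51 and 4.15 CPM in DIO + DHA. Only DIO replicate 1, with 2 Mogat1 counts, stood apart, and it was the shallowest library. The fitted log2 fold change was 0.33 ± 0.30 (SE), adjusted p = 0.555, with a fold between 0.825 and 1.92 (95% interval). Of the exon bases of Mogat1, 12.8% overlap the antisense gene BC035947, and counting used no strand, so reads from the shared bases cannot be assigned to either gene.

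A promoter sequence bears on which of the genes carry the letters that PPARγ and its partner recognise close to their start. The response element is 2 copies of AGGTCA separated by 1 base (direct repeat 1), and it was looked for on both strands in RefSeq windows on GRCm39, from 250 bases before to 50 bases after the start, with at most 2 mismatches among the 12 letters compared. Of the 10 genes 8 had a window, Fabp4 and Car3 had none, and of the 8 only Mogat1 and Cd36 held such a match. Over all genes with a window, 4.40% of 27025 held one. The 2 matches are shown with 8 bases on each side, and the best match of Retn, the fat tissue gene with the largest fold change, stands beside them with 3 mismatches. Capitals mark the 13 bases of the element as read along the gene's strand.

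Mogat1: cagaattcAGGTAAAAAGTCAggctggtg

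Cd36: tggttctcTGGCCTCTGACTTacttggat

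Retn: gcaatggaAGGCCAGGGGCCAgggtactt

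The Mogat1 stretch is chr1:78487638-78487666 on the plus strand, with the element 51 to 39 bases before the RefSeq start and on the strand of the gene. The Cd36 stretch is chr5:18040937-18040965 on the minus strand, with the element on the opposite strand, 63 to 51 bases before the RefSeq start used here, which lies inside the longer GENCODE locus. The Retn stretch is chr8:3705715-3705743 on the plus strand, 47 to 35 bases before the start. Both genes with a match, Mogat1 and Cd36, were among those that did not pass the test; a match of letters describes the sequence and no binding was measured.

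**Figure D2:**
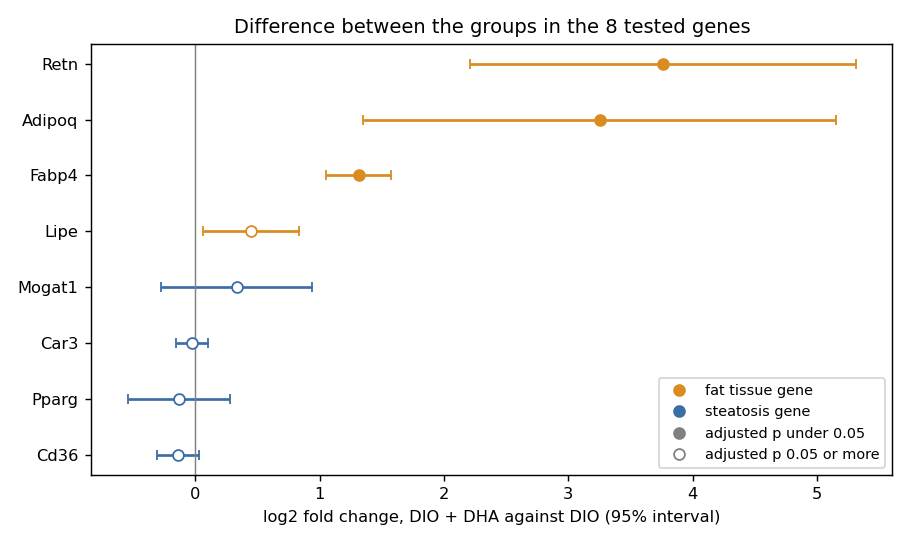
Log2 fold change (DIO + DHA against DIO) of the 8 tested genes with 95% intervals; filled points have an adjusted p under 0.05 (edgeR). Retn, Adipoq and Fabp4 lie at 3.76, 3.25 and 1.31, and the intervals of Mogat1, Car3, Pparg and Cd36 include 0.

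Among the fat tissue genes, Fabp4 gave the most precise difference. It encodes the fatty acid binding protein of fat cells, also made by capillary endothelium and macrophages, and lies at chr3:10269148-10273636 on the minus strand. Its levels were 14.6, 17.5 and 19.3 CPM in the DIO livers and 40.5, 43.9, 51.0, 37.5 and 49.4 CPM in the DIO + DHA livers. The lowest DIO + DHA liver was well above the highest DIO liver. The log2 fold change was 1.31 ± 0.13 (SE), adjusted p = 4.86e-12, a fold of 2.07 to 2.98 (95% interval). The macrophage list, in which 12 of 16 markers were lower and 1 higher, summed to 943 to 1035 CPM in DIO and 539 to 575 CPM in DIO + DHA. The endothelial list, with 3 of 15 tested markers lower, 12 not called and a median log2 fold change of 0.03, summed to 308 to 326 CPM and 235 to 270 CPM. The part of these cells in the level of Fabp4 was not tested.

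Retn and Adipoq encode the secreted fat cell proteins resistin and adiponectin (chr8:3705770-3710110 and chr16:22965286-22976778, both on the plus strand), and both rested on few counts. Retn gave 2, 0 and 0 counts in the DIO libraries and 10, 4, 15, 7 and 13 counts in the DIO + DHA libraries, or 1.13, 0 and 0 CPM against 1.98, 1.34, 5.35, 1.64 and 2.84 CPM. The groups did not overlap, though DIO + DHA replicate 2 lay close to DIO replicate 1. The log2 fold change was 3.76 ± 0.77 (SE), adjusted p = 2.39e-04, and the ratio of summed counts per summed library size was 16.1 with an exact 95% interval of 4.23 to 137 that covers counting error only. An exact two-sided permutation test of its group means gave p = 0.0536. Leaving out DIO replicate 1 left no Retn count in the DIO group, and the fitted value of 6.49 then depends on the prior count and is no measure of size.

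Adipoq gave 3, 0 and 2 counts in the DIO libraries and 6, 20, 22, 12 and 16 counts in the DIO + DHA libraries. In CPM these were 1.69, 0 and 0.355 against 1.19, 6.70, 7.85, 2.81 and 3.49. The groups overlapped, because DIO + DHA replicate 1 was below DIO replicate 1, and DIO + DHA replicates 2 and 4 were the highest. Adipoq had a log2 fold change of 3.25 ± 0.87 (SE) and an adjusted p of 0.0234, with a 95% interval of 1.35 to 5.16, and the exact permutation test of its group means gave p = 0.0893. The call was lost without DIO replicate 4 (2.49, adjusted p = 0.0809), without DIO replicate 5 (3.16, adjusted p = 0.193) and without DIO + DHA replicate 6 (3.30, adjusted p = 0.0648), and without DIO replicate 1 the value was 4.29.

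Plin1, which coats the large lipid droplet of fat cells (chr7:79369966-79382651, minus strand), had no count in the DIO group and 2, 2, 3, 1 and 5 counts in the DIO + DHA libraries. That is 0.397, 0.670, 1.07, 0.234 and 1.09 CPM, a low level present in 5 of 5 livers. Against a floor of 3 counts over the whole DIO group, which is 0.232 CPM, the Plin1 fold was 2.85, without the counting error of the DIO + DHA group. The exact lower 95% limit of the ratio of counts, which covers counting error in both groups, was 2.01-fold. An exact two-sided permutation test of the group means over the 56 possible assignments of the libraries gave p = 0.0357, where the smallest p possible is 0.0179. Lep, the gene of leptin (chr6:29060219-29073876, plus strand), gave 2 counts in DIO + DHA replicate 4, or 0.714 CPM, and no count in the other 7 libraries, so no fold is given.

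Lipe, the hormone-sensitive lipase of fat cells that is also expressed at a low level elsewhere (chr7:25078952-25098135, minus strand), lay between these patterns. It was at 6.19, 10.5 and 9.76 CPM in DIO and at 14.7, 14.7, 14.6, 8.90 and 12.0 CPM in DIO + DHA. Of the DIO + DHA livers 4 were above all DIO livers, and DIO + DHA replicate 5 fell inside the DIO range. Its log2 fold change of 0.45 ± 0.19 (SE) had an unadjusted p of 0.0246 and an adjusted p of 0.120, and it passed only when DIO + DHA replicate 5 was left out (0.56, adjusted p = 0.0395). The antisense gene 4732471J01Rik covers 15.6% of the exon bases of Lipe, and reads from those bases cannot be told apart.

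Summed over Adipoq, Retn, Plin1 and Lep, the level was 2.81, 0 and 0.355 CPM in the DIO livers and 3.57, 8.71, 15.0, 4.68 and 7.42 CPM in the DIO + DHA livers. DIO + DHA replicate 4 was highest, also in Adipoq and Retn each, and the only library with Lep counts. Over Adipoq, Retn, Plin1, Lep, Lipe, Cfd, Adig and Cidec, which hold more counts, it was 20.3, 23.8 and 18.6 CPM in DIO and 109, 106, 118, 95.8 and 96.5 CPM in DIO + DHA, with replicate 4 again highest and replicate 1 next. Cidec, which fatty hepatocytes also make, and Cfd held most of this sum in DIO + DHA, at means of 48.9 and 33.4 of 104.9 CPM. The larger sum also contains the first 4 genes, so it is no separate measure of them. With Fabp4 and Lipe added to the first 4, the 6 fat tissue genes summed to 23.6 to 29.5 CPM in DIO and 51.1 to 80.6 CPM in DIO + DHA, a ratio of means of 2.42.

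Markers of tissues other than liver moved in the same livers. The 20 skeletal muscle markers were all higher in DIO + DHA, but 8 of them, Casq1 and Mb with no DIO count among them, reached the count minimum only through that group, and 12 reached it in DIO too. Their sum was 46.1, 46.0 and 40.8 CPM in the DIO livers and 1632, 1589, 1514, 1560 and 1503 CPM in the DIO + DHA livers. Of the squamous epithelium markers 7 of 7 tested were higher, 5 of which were tested only through the DIO + DHA group, and 9 of 13 had no DIO count. The sums were 40.4 to 44.4 CPM and 99.2 to 112 CPM. Nearly all of the DIO sum was Ly6d, at 44.4, 39.1 and 40.5 CPM. Ly6d was at 46.2 to 55.5 CPM in DIO + DHA, so it held less of the difference. Krt4 had 1 count in DIO and 508 counts in DIO + DHA. Of 6 tested smooth muscle markers 3 were higher, Actg2 among them tested only through DIO + DHA, with sums of 9.40 to 12.3 CPM and 27.5 to 45.4 CPM. Of 11 tested stromal markers 1 was higher, Mfap5, also tested only through that group. Of 9 markers of lipid-associated macrophages 2 were higher and 4 lower. The higher ones, Lpl and Fabp5, are also counted below with the steatosis genes and the genes of fatty acid uptake. Trem2 was at 5.63, 8.84 and 6.57 CPM in DIO and at 0.670 to 2.78 CPM in DIO + DHA. The part of these tissues in the levels of the fat tissue genes was not tested.

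**Figure D3:**
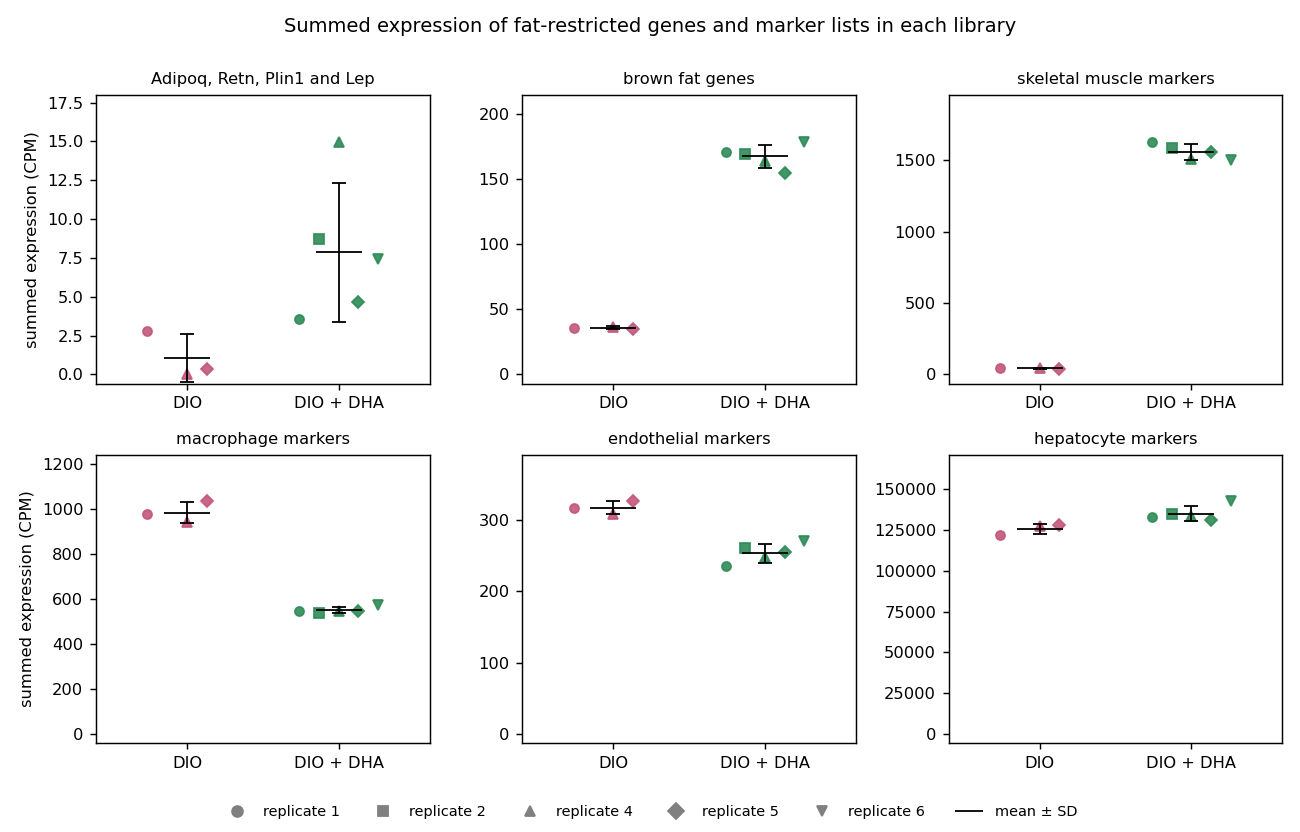
Summed level in CPM of Adipoq, Retn, Plin1 and Lep and of 5 gene lists in each library, DIO (3 mice) beside DIO + DHA (5 mice); symbols give the replicate number and bars the mean ± SD. The skeletal muscle sum is 40.8 to 46.1 CPM in DIO and 1503 to 1632 CPM in DIO + DHA, the macrophage sum is 943 to 1035 CPM in DIO and 539 to 575 CPM in DIO + DHA, and the summed fat cell genes spread from 3.57 to 15.0 CPM within DIO + DHA.

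Other genes of fat tissue went with the fat cell genes only in part. Of 26 further fat tissue genes 12 were tested. In DIO + DHA 8 were higher (66.7%) and 2 lower (16.7%), against 7.89% and 7.28% of all tested genes. Their median log2 fold change was 0.87 against 0.00 over all tested genes. Of the 8, Cidea, Slc2a4 and Adig were tested only through the DIO + DHA group; over the 9 genes that reached the minimum in DIO too, 5 were higher, 2 lower and the median was 0.35. Cfd, the fat cell protease adipsin, which was singled out after its values were seen, went from 0.887 to 2.16 CPM in DIO to 26.2 to 40.3 CPM in DIO + DHA (log2 fold change 4.47 ± 0.24 SE, adjusted p = 1.48e-22). Cidec, a droplet fusion protein of fat cells and of fatty hepatocytes, was at 10.1, 11.0 and 7.45 CPM in DIO and at 52.4, 48.9, 45.3, 48.9 and 48.9 CPM in DIO + DHA (2.39 ± 0.14 SE, adjusted p = 1.25e-20). Lpl, lipoprotein lipase, which frees fatty acids from circulating triglyceride, was higher as well (1.15 ± 0.11 SE, adjusted p = 4.59e-13), as were the fat cell lipase gene Pnpla2 (0.59) and the acyltransferase gene Agpat2 (0.35).

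The remaining 3 called higher, Cidea, Slc2a4 and Adig, named here because they complete the count, held 2, 3 and 2 counts in the whole DIO group against 50, 53 and 35 in DIO + DHA. Cidea, a droplet protein of brown fat, had a count ratio of 16.5 (exact 95% interval 4.33 to 140, counting error only), Slc2a4, the insulin-regulated glucose carrier of fat and muscle, 11.6 (3.77 to 58.2), and Adig, a small protein of fat cell differentiation, 11.5 (2.96 to 98.9). On the other side, the lipogenic gene Thrsp fell from 206 ± 10.1 to 128 ± 9.49 CPM (SD, n = 3 and 5; log2 fold change -0.69) and the droplet coat gene Plin4, which PPARγ is known to drive in fat cells, fell from 21.3 ± 2.01 to 11.3 ± 2.36 CPM (-0.90). Gpd1 (359 and 404 CPM, adjusted p = 0.0994) and the fat cell adrenergic receptor gene Adrb3 (1.70 and 1.71 CPM, adjusted p = 0.921) did not pass the test.

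Of 12 genes of brown fat 5 were tested and all 5 were higher, Ucp1 tested only through the DIO + DHA group and the other 4 at the minimum in both. Cox8b, a respiratory chain subunit of brown fat that muscle makes too, was at 2.75 ± 1.54 CPM in DIO and at 61.6 ± 7.09 CPM in DIO + DHA (SD, n = 3 and 5), and Cox7a1, another such subunit, rose by 1.49 ± 0.12 (SE) on the log2 scale. Ucp1, the uncoupling protein that defines brown fat, singled out after its values were seen, had no count in DIO and 89 counts in DIO + DHA, between 2.85 and 5.03 CPM in each liver. Against the floor of 3 counts over the DIO group its fold was 19.5, without the counting error of the DIO + DHA group. Elovl3 rose by 0.98 ± 0.28 (SE) on the log2 scale, and Ppargc1a is described with the partners of PPARγ.

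Of 24 tested partners and coregulators of PPARγ 2 were higher (8.33%) and 3 lower (12.5%), with a median log2 fold change of -0.11. Over all tested genes 7.89% were higher and 7.28% lower. Rxra, the liver's main retinoid X receptor, was at 224 ± 15.7 and 220 ± 13.2 CPM (SD; adjusted p = 0.849), and Nr1h3, the liver X receptor that also pairs with it, was at 153 CPM in both groups (adjusted p = 0.970). Ppargc1a, a coactivator that brown fat, muscle and fasted liver use, was at 6.75, 7.93 and 9.23 CPM in DIO and at 33.5, 41.9, 36.7, 31.1 and 30.1 CPM in DIO + DHA (2.04 ± 0.16 SE, adjusted p = 7.00e-16). The receptor partner Rxrg, typical of muscle, was higher by a smaller amount (0.55 ± 0.20 SE, adjusted p = 0.0474). The early fat cell factors Cebpb and Cebpd fell by 1.05 and 0.51 on the log2 scale, and Klf15, another factor of fat cell formation, fell by 0.30.

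While Pparg, Cd36, Car3 and Mogat1 did not pass the test, 15 of 30 tested genes of a list of steatosis and PPARγ target genes were higher in DIO + DHA and 3 were lower, with a median of 0.40. The most abundant of the former were Cyp4a14, a fatty acid omega-hydroxylase that PPARα drives (log2 fold change 0.77 ± 0.06 SE), Apoa4, a lipoprotein gene that rises in fatty liver (1.59 ± 0.07), Plin2, the droplet coat of hepatocytes (0.51 ± 0.06), and Scd1, which makes monounsaturated fatty acids (1.30 ± 0.07). Scd1 was at 353, 369 and 383 CPM in DIO and at 942, 986, 866, 909 and 856 CPM in DIO + DHA. Lower were Hsd11b1 (-0.22), the droplet gene Fitm1 (-0.35) and Plin4. Pck1 and Angptl4, which PPARγ drives in fat cells and other signals drive in liver, did not pass the test (0.01 and 0.07). The list holds 4 of the fat tissue genes called higher above (Cidec, Lpl, Pnpla2 and Cidea), so its count is not separate from theirs.

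**Figure D4:**
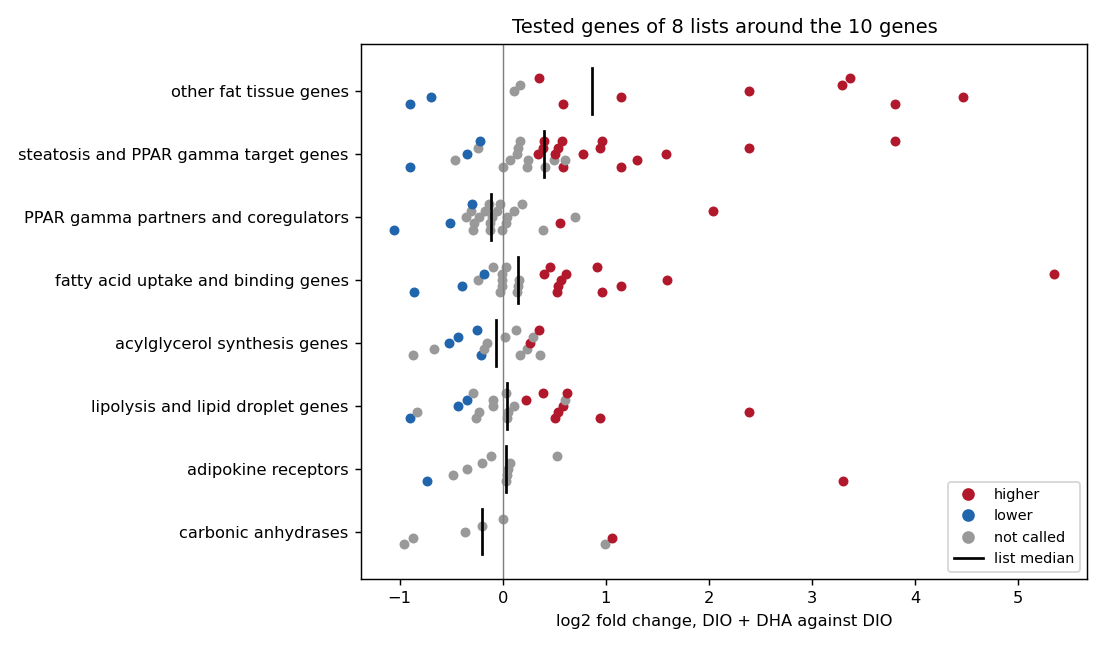
Log2 fold change (DIO + DHA against DIO) of every tested gene of 8 lists; each point is a gene, coloured by its call at an adjusted p of 0.05 (edgeR), and the black bar is the list median. The median of the other fat tissue genes is 0.87 and that of the steatosis and PPARγ target genes 0.40, whereas the medians of acylglycerol synthesis, lipolysis and adipokine receptor genes lie at -0.07, 0.04 and 0.03.

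Around Cd36, 11 of 24 tested genes of fatty acid uptake and binding were higher (45.8%) and 3 were lower (12.5%), with a median of 0.15. Over all tested genes 7.89% were higher and 7.28% lower. Acsl1, Lpl and Fabp5 were also counted with the steatosis and PPARγ target genes, so these counts are not separate. Fabp1, the fatty acid binding protein of hepatocytes and the relative of Fabp4 that liver makes in bulk, rose by 0.57 ± 0.06 (SE) on the log2 scale. Dbi, which carries acyl-CoA, the very long chain transporter Slc27a2 and the acyl-CoA synthetase gene Acsl1 rose by 0.54, 0.52 and 0.40. Fabp3, the relative of heart and muscle, which was singled out after its values were seen, went from 0.177 to 0.563 CPM in DIO to 14.4 to 20.7 CPM in DIO + DHA (5.35 ± 0.35 SE), with only 5 counts in the DIO group; it and Cav1 were tested only through DIO + DHA. Fabp7, Lrp1 and Slc27a5 fell by 0.87, 0.40 and 0.19, and Got2 and Lipc did not pass the test (0.04 and 0.00).

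Around Mogat1, 2 of 16 tested genes of acylglycerol synthesis were higher and 4 lower (median -0.07). Dgat2, which makes triglyceride from the diacylglycerol that Mogat1 yields, fell by 0.44 ± 0.07 (SE) on the log2 scale, adjusted p = 4.97e-06, and Lpin1, Plpp3 and Lpin2 fell by 0.52, 0.25 and 0.22. Agpat2, also counted with the fat tissue genes, and Agpat3 were higher (0.35 and 0.26). Mogat2, the intestinal relative of Mogat1, was below the count minimum. Around Lipe and Plin1, 8 of 22 tested genes of lipolysis and the lipid droplet were higher (36.4%) and 3 lower (13.6%). Most of these, Plin2, G0s2, Mgll, Pnpla2, Cidec, Fitm1 and Plin4 among them, were also counted with the steatosis and PPARγ target genes. The counts of both lists are therefore not separate. Plin2, G0s2, an inhibitor of the lipase that Pnpla2 encodes, Mgll, the monoacylglycerol lipase, and Plin5 rose by 0.51, 0.95, 0.54 and 0.23 on the log2 scale. The lipase gene Ces1d fell by 0.43, and Aadac and Ces1f did not pass the test (0.05 and -0.10).

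The receptors for the secreted products of Adipoq, Retn and Lep were measured in the same livers. Of 11 tested genes of adipokine receptors and their signalling 1 was higher and 1 lower (9.09% each), near the 7.89% and 7.28% of all tested genes. Lepr, the leptin receptor, was at 1.69, 1.08 and 1.06 CPM in DIO and at 13.1, 14.7, 13.2, 10.3 and 8.30 CPM in DIO + DHA, a log2 fold change of 3.30 ± 0.31 (SE, adjusted p = 8.10e-13). Its groups lay far apart although it held only 15 counts in DIO. Stat3, which carries the leptin signal, fell by 0.74 ± 0.09 (SE). The adiponectin receptor genes Adipor1 (0.04, adjusted p = 0.829) and Adipor2 (-0.12, adjusted p = 0.327) did not pass the test. Among the relatives of Car3, 1 of 7 tested carbonic anhydrases was higher (14.3%, against 7.89% of all tested genes) and none was lower. The gene called was Car2 (1.06 ± 0.19 SE, adjusted p = 2.22e-05), and Car5a and Car8 did not pass (-0.20 and 0.00).

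As a description of likeness, the log2 CPM of each tested gene was set against that of each of 6223 genes whose mean over the 8 libraries reached 10 CPM. The closest by Pearson's r were Lrrc8a for Cd36 (0.993), Psen2 for Fabp4 (0.993), Shtn1 for Adipoq (0.976), Hacd1 for Mogat1 (0.969) and Spp2 for Retn (0.969). For Lipe, Car3 and Pparg they were Gm38882 (0.967), Ciapin1 (0.956) and Pbrm1 (0.922). Nsmce1 was among the 3 closest genes of both Adipoq (0.963) and Retn (0.951), and no other gene was shared by 2 lists. The 8 points share their libraries, and for Fabp4, Adipoq and Retn they also carry the difference between the groups. For Cd36 (169 CPM) and Mogat1 (1.13 CPM) DIO replicate 1, the shallowest library, stood apart, so that library weighs heavily in their r.

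**Figure D5:**
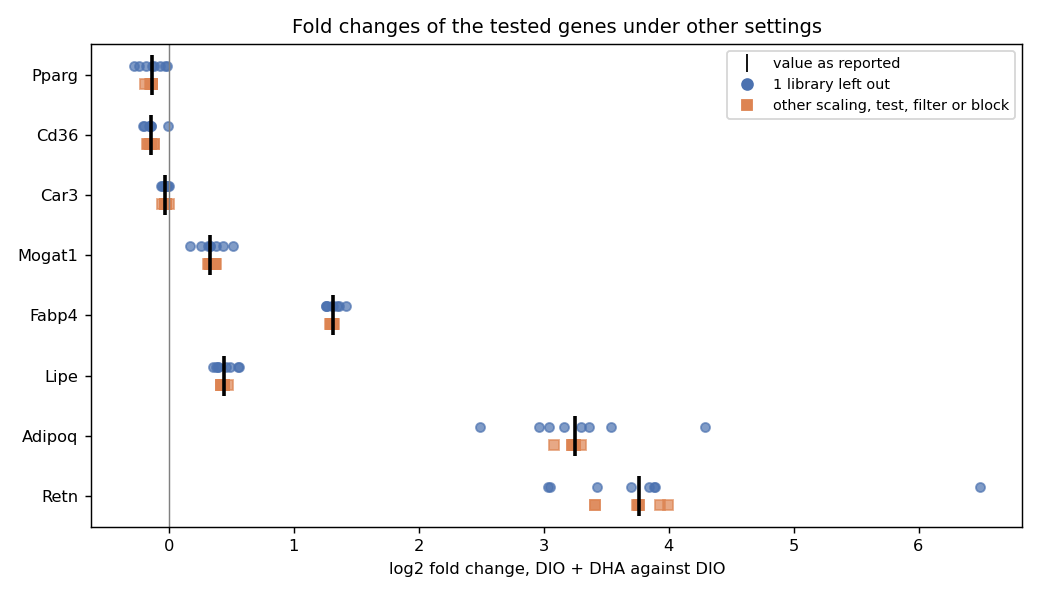
Log2 fold change of the 8 tested genes as reported (black bars), with 1 library left out (circles) and under other scalings, tests, filters or the replicate block (squares). Pparg, Cd36 and Car3 stay between -0.28 and 0.01, Fabp4 between 1.26 and 1.42, and the spread is widest for Adipoq (2.49 to 4.29) and Retn (3.04 to 6.49), the genes with the fewest counts.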

How the data were processed

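Poly(A) RNA of 8 livers was sequenced by the authors with a 3′-enriched, barcoded SCRB-seq protocol, and reads were checked with FastQC 0.11.8, trimmed, aligned to GRCm39 with STAR 2.7.9a and counted on GENCODE exons with featureCounts 1.6.0, per the labels, the methods and the file headers. The deposited values are raw counts per gene. No strand option was set, and whether molecular identifiers were collapsed is not given in the sources used here, so intervals and floors cover counting error only. The sample labels used here name group and replicate but no processing batch, so whether both groups were processed together is not known.

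Genes entered the test when at least 50% of the mice of either group reached 5 counts. The counts were tested with edgeR 4.0.16 (R 4.3.3, TMM scaling, robust quasi-likelihood F test), called at an adjusted p under 0.05 over 12412 genes. On simulated counts the test called 74.2% of genes changed 2-fold and 37% of those changed less, with 8 false calls among 117. The simulation gave all genes the same dispersion, so it does not cover genes that vary more. DESeq2 1.42.0 and limma 3.58.1, other scalings and filters, a replicate block and leaving out each library were the alternatives. The study's methods used limma-voom with B above 0. CPM used the effective library sizes. SEs are the log2 fold change divided by the square root of F. Log2 CPM for likeness used a prior count of 2.

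The 10 genes and the gene lists were chosen with earlier results of these data known. From the lists of fat, lipid, PPARγ partner, adipokine receptor and carbonic anhydrase genes, the text names genes by abundance. These are from among the up to 4 most abundant called genes in each direction and up to 2 not called. Cfd, Fabp3, Ucp1, Cidea, Slc2a4, Adig, Cav1, Casq1, Mb, Mogat2, Ly6d, Krt4, Fabp5 and Trem2, which fall outside this rule, were named after their values were seen. The marker lists of other cell types are given mainly as counts and sums, with few genes named. Gyk and Tf matched no symbol. The single-gene permutation test, planned for genes below the minimum and given for Retn and Adipoq too, enumerated all 56 assignments. Promoter windows came from RefSeq and were placed on GRCm39 by exact match.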

Additional observations from a re-analysis of the deposited data

Results flagged for a closer look

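Among 21 groups of values tested for a library far from the rest (the DIO + DHA group only, since 3 DIO livers are too few), 2 were marked, and chance marks about 1 in 20 groups. Lep was at 0.714 CPM in DIO + DHA replicate 4 and at 0 in the other 4 libraries of its group, which rests on 2 counts. Any gene counted in only 1 library of the group is marked in this way, so the rate of chance marks does not apply to Lep. The macrophage markers summed to 575 CPM in DIO + DHA replicate 6, where the other 4 lay between 539 and 548 CPM and all DIO livers were at 943 CPM or above.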

How the results depend on the processing

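Of 18 alternatives, 17 left the count of genes called within 1.5 times of the reported 1883, and limma-voom with B above 0 gave 860. A minimum of 10 counts in every library cut the 10 genes called higher from 3 to 1 and the other fat tissue genes called higher from 8 to 4, because Retn, Adipoq and other low genes were no longer tested. With B above 0 the steatosis and PPARγ target genes called lower went from 3 to 1, Adipoq was no longer called (3.23), and leaving out 1 library gave 1 to 3 genes called lower, 1 without DIO replicate 5; the cause was not tested. Leaving out 1 library gave 1432 to 1859 calls over all genes, 2 to 4 of the 10 genes higher and 8 or 9 other fat tissue genes higher. Fabp4 was called in each of the 8 fits with 1 library left out (1.26 to 1.42), Adipoq in 5 (2.49 to 4.29) and Lipe in 1 (0.35 to 0.57). Retn was also called in each (3.04 to 6.49), where 6.49 came from a fit with no Retn count in DIO. Retn and Adipoq were tested only through the DIO + DHA group, so their calls in these fits are a description and no separate support. Pparg (-0.28 to -0.01), Cd36 (-0.21 to -0.01) and Mogat1 (0.17 to 0.51) were called in none, nor was Car3 (-0.06 to 0.01), whose sign turned without DIO replicate 1 and under the replicate block.

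The replicate numbers 1, 4 and 5 occur in both groups but do not pair the livers: the correlations of same-numbered deviations were -0.0072, -0.0192 and -0.0457, and none was closest to its own number. With the replicate block 1538 genes were called and 3 of the 10 genes were higher. Scaling by library size alone gave 904 higher and 961 lower calls. Genes with few counts in the shallow DIO replicate 1 limit what could be seen.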
